A study of Homo sapiens with 4 samples.

Results

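Levels of 9 mRNA surveillance factors were examined in LV-M100 breast cancer cells with and without depletion of the spliceosomal gene SNRNP40. The 9 genes were UPF1, UPF2, UPF3A, UPF3B, SMG1, SMG5, SMG6, EIF4A3 and MAGOH. They were taken by gene symbol for their known roles, out of 23217 symbols in the deposited transcript table, and they account for 13 of its 44578 transcripts. All 9 had a mean level above 1 FPKM (fragments normalized to transcript length and to the mapped fragments of the library), so none was lost to the filter on low values.

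LV-M100 is a single subclone of MDA-MB-231, a triple-negative breast cancer line, and all cells were transfected by lipofection, and RNA was collected 48 h later. Of the 4 libraries, the 2 siControl libraries received the NC1 control siRNA or the BLOCK-iT Fluorescent Oligo, and the 2 siSNRNP40 libraries received siSNRNP40 #1 or #2. The deposited table gives 1 FPKM value per transcript and condition, with both libraries of a condition pooled. No replicate error and no test between the conditions could be computed from these pooled values, and because no read counts are listed the depth behind each value is unknown.

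Of the line's 4 markers expected high, all were above 100 FPKM with siControl, among them VIM at 750.1 FPKM. CAV1, another of them, had 285.4 FPKM with siControl and 197.7 FPKM with siSNRNP40. PTPRC, a leukocyte gene, was listed at 0 in both conditions. ESR1, PGR and CDH1 were below 0.1 FPKM, whereas EPCAM, an epithelial gene placed among the low markers, was at 10.6 FPKM with siControl. SNRNP40 went from 40.4 FPKM with siControl to 6.12 FPKM with siSNRNP40. The log2 ratio of -2.72 was larger in size than that of 99.9% of genes.

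Nonsense-mediated decay removes mRNAs on which translation ends too early. In human cells a stop codon is read as premature mainly when an exon junction complex, left behind by splicing, remains downstream of it. The UPF proteins then assemble on the mRNA, SMG1 phosphorylates UPF1, and SMG5 and SMG6 lead the mRNA to degradation. Misspliced and intron-retaining transcripts often carry premature stops, so these factors act on some of the products of faulty splicing. The comparison asks whether the mRNAs of this machinery differed when a component of the U5 small nuclear ribonucleoprotein was depleted.

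The strands of both siRNAs as listed for the samples are shown because they define the treatment. Each matches 1 stretch of the SNRNP40 mRNA in full, in exon 5 for #1 (chr1:31754224-31754241) and in exon 2 for #2 (chr1:31766067-31766084, GRCh37, minus strand). No mRNA of the 9 factors holds a whole site of 18 bases. The longest uninterrupted run shared with any of them, on either strand, was 10 bases for #1 and 9 bases for #2. It lay in SMG1 and UPF3B for #1 and in SMG1 and UPF1 for #2. Every factor shares a run of at least 6 bases with each siRNA, and effects through such short runs were not tested.
siSNRNP40 #1: ggaauagacaaugauauc
siSNRNP40 #2: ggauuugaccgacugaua

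Each of the 9 factors had close values in the 2 conditions. With FPKM summed over the transcripts of a gene, the log2 ratio of siSNRNP40 over siControl ran from -0.087 for SMG6 to 0.23 for MAGOH. In 6 genes it was above 0 and in 3 below. Under 7 alternative settings, some of which left every factor as it was, no factor changed sign except UPF1. UPF1 was just above 0 (0.00079) with upper-quartile scaling. None of the 9 passed a 2-fold difference, where 1.47% of the 12334 genes with a mean of at least 1 FPKM did. None passed a log2 ratio of 0.32 in either direction, that is, 25% higher or 20% lower, beside 23.4% of all genes, with 11.9% higher and 11.5% lower. Both shares were also taken over the 5011 genes with a mean of 10 to 60 FPKM, the range that holds all 9 factors. There 0.479% passed 2-fold and 15.5% passed 0.32 in either direction. The median absolute log2 ratio was 0.045 for the 9 factors, 0.14 for the genes of that range and 0.17 for all genes. Because the libraries of a condition are pooled, none of these differences can be set against the spread between libraries. In bulk RNA, fewer cells with a transcript and less of it per cell cannot be told apart.

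**Figure D1:**
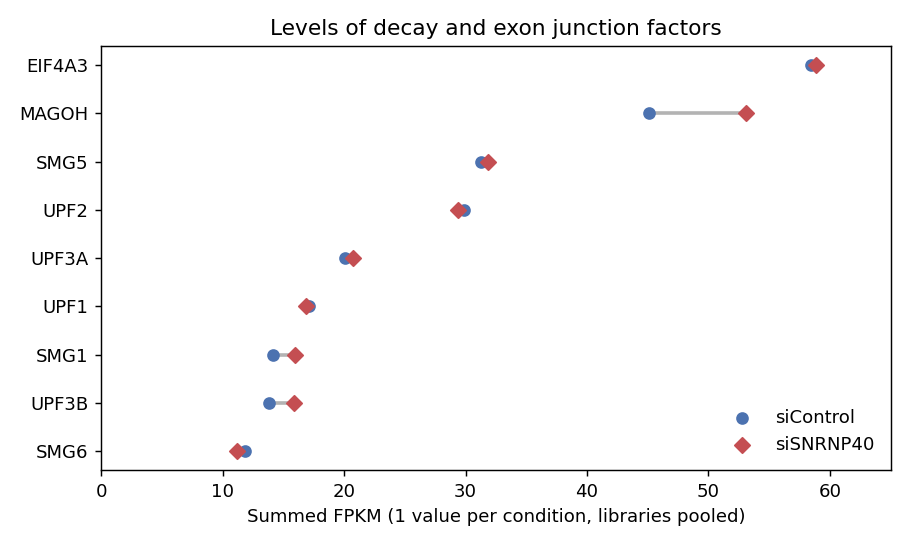
Summed FPKM (x axis) of the 9 factors (y axis) with siControl (circles) and siSNRNP40 (diamonds), 1 value per condition with libraries pooled and no error available. The order of the 9 genes is the same in both conditions, and the widest gap is that of MAGOH, from 45.1 to 53.1 FPKM.

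The order of the levels was kept for all 9 genes. EIF4A3 was highest and SMG6 lowest, with MAGOH, SMG5, UPF2, UPF3A, UPF1, SMG1 and UPF3B between them in falling order. Neighbours in this order cannot be separated by a replicate spread, and SMG1 and UPF3B lay closest, at 14.1 and 13.8 FPKM with siControl and 15.97 and 15.86 FPKM with siSNRNP40. FPKM is per length, so these levels are set side by side. Reads shared with copies elsewhere in the genome, described below for UPF3A and SMG1, can alter them, and their part was not tested. Smaller parts of the EIF4A3, MAGOH, UPF3B and SMG5 mRNAs also occur elsewhere. EIF4A3 exceeded 88.5% of all genes in mean level and SMG6 exceeded 52.0%, so every factor lay in the upper part of the expressed genes. Summed over the 9 genes, FPKM was 241.8 with siControl and 253.7 with siSNRNP40, a log2 ratio of 0.069.

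Among the UPF proteins, UPF1 is the RNA helicase on which the pathway turns. It lies on the plus strand of chromosome 19 (chr19:18942768-18979039) with 24 exons, and its single listed transcript had 17.1 FPKM with siControl and 16.9 FPKM with siSNRNP40 (log2 ratio -0.024). UPF2, which bridges UPF1 to the UPF3 proteins, lies on the minus strand of chromosome 10 (chr10:11962021-12085169). Its summed level was 29.9 FPKM with siControl and 29.3 FPKM with siSNRNP40 (-0.027). Both genes thus had slightly lower values after SNRNP40 depletion, by less than 2%, and the ratio of UPF2 to UPF1 was 1.75 with siControl and 1.74 with siSNRNP40.

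UPF3A and UPF3B are paralogues that link UPF2 to the exon junction complex, UPF3B being the more active in decay. UPF3A on chromosome 13 (chr13:115047076-115071292) had 20.1 FPKM with siControl and 20.8 FPKM with siSNRNP40, a log2 ratio of 0.045. UPF3B on the X chromosome (chrX:118967985-118986961) had 13.8 and 15.9 FPKM, a log2 ratio of 0.20 and an increase of 14.7%. UPF3A therefore stood above UPF3B in both conditions, with a ratio of 1.45 for siControl and 1.31 for siSNRNP40. Their coding sequences are 64.7% identical over the aligned bases and their mRNAs share no run longer than 16 bases. UPF3A has other copies. Of the 32-base windows of its mRNA, 71.01% occur without a mismatch elsewhere in GRCh37. Counted over all its windows, 58.4% occur within the span of CCDC144A and 58.3% within that of CCDC144CP, both on chromosome 17, the latter with the pseudogene UPF3AP2 inside it. No pseudogene of UPF3A was matched to a row of the deposited table, and the part that such reads have in the UPF3A value was not tested.

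SMG1 is the kinase that phosphorylates UPF1. It lies on the minus strand of chromosome 16 (chr16:18816182-18937730) with 63 exons, and its single listed transcript had 14.1 FPKM with siControl and 15.97 FPKM with siSNRNP40. The log2 ratio was 0.18, close to the median absolute change of all genes. SMG8 and SMG9, its partners in the kinase complex, had lower values after depletion, SMG8 with 13.9 and 12.3 FPKM (-0.18) and SMG9 with 8.23 and 7.61 FPKM (-0.11). The kinase and its partners thus had log2 ratios of opposite sign.

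RefSeq names 7 partial copies of SMG1 in the genome, and 4 of them are rows of the deposited table under identifiers made from their gene numbers. Together these 4 had 45.6 FPKM with siControl and 50.2 FPKM with siSNRNP40, well above SMG1 itself. Each had a log2 ratio above 0, from 0.11 for SMG1P2 to 0.22 for SMG1P5, and with SMG1 added the sum had 0.15. At least 1 copy aligned to 28.6% of the SMG1 mRNA, at 93.7% to 98.5% identity, and 18.4% of its 32-base windows occur elsewhere in the genome. The stretch below shows how alike they are, with the bases that differ in capitals. SMG1 is read from coding exon 2 (chr16:18908159-18908278, minus strand) and SMG1P1 from its exon 2 (chr16:22466023-22466142, plus strand), and they differ at 2 of 120 bases.
SMG1: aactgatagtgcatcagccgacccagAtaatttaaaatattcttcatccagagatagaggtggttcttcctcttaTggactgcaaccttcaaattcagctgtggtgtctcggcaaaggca
SMG1P1: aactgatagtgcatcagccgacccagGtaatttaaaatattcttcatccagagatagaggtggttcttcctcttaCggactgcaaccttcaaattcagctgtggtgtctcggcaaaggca

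Reads from such stretches can be assigned to either gene. To that extent the values of SMG1 and of its copies are uncertain and not independent of each other.

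**Figure D2:**
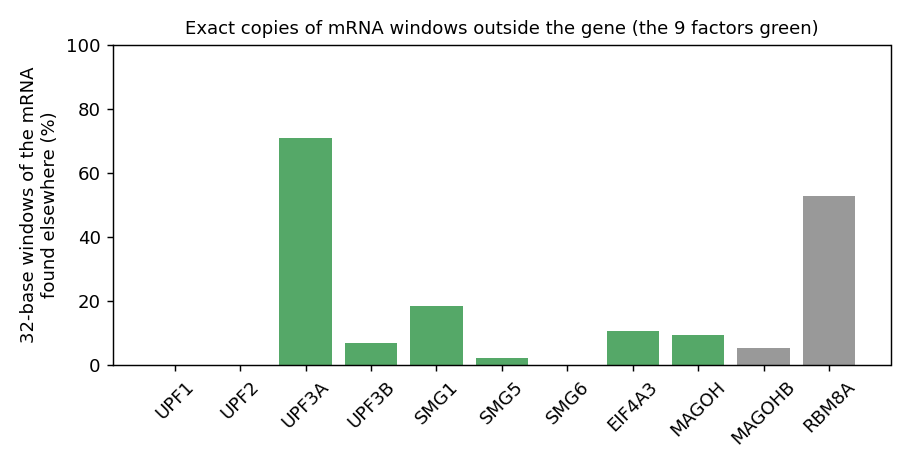
Share of the 32-base windows of each canonical mRNA (y axis, percent) that occur without a mismatch outside the gene in GRCh37, for the 9 factors (green) and for MAGOHB and RBM8A (grey). UPF3A (71.01%) and RBM8A (52.8%) have the largest shares, and UPF1, UPF2 and SMG6 have none.

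SMG5 and SMG6 act on phosphorylated UPF1. SMG5 helps to bring in decapping and deadenylation enzymes, and SMG6 is the endonuclease that cuts near the premature stop. SMG5 on chromosome 1 (chr1:156219015-156252616) had 31.3 FPKM with siControl and 31.8 FPKM with siSNRNP40 (log2 ratio 0.026). SMG6 on chromosome 17 (chr17:1963133-2207079) had 11.9 and 11.2 FPKM (-0.087), the lowest log2 ratio of the 9 in summed FPKM, and -0.0097 with its most expressed transcript alone, which placed it above UPF2 at -0.036. The ratio of SMG6 to SMG5 was 0.380 and 0.351, with SMG6 the less abundant in both.

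The exon junction complex is built on EIF4A3, a DEAD-box helicase that clamps the RNA, with the heterodimer of MAGOH and RBM8A (Y14) locking it in place and CASC3 joining later. EIF4A3 on chromosome 17 (chr17:78108168-78120950) had 58.4 FPKM with siControl and 58.8 FPKM with siSNRNP40, a log2 ratio of 0.0095. MAGOH on chromosome 1 (chr1:53692572-53704190) had 45.1 and 53.1 FPKM, a log2 ratio of 0.23. This was the largest change of the 9 in summed FPKM, but with the most expressed transcript alone UPF3B, at 0.25, stood above it. It exceeded that of 63.1% of all genes. The locus that the deposited table gives for MAGOH also takes in its neighbour LRP8, whose summed FPKM was 10.2 with siControl and 9.10 with siSNRNP40 (-0.17).

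RBM8A, MAGOHB and CASC3 also had higher values with siSNRNP40, CASC3 only slightly. PNN, among the exon junction partners listed further below, had a lower value (-0.28). RBM8A, which pairs with MAGOH in the complex, had 39.3 FPKM with siControl and 46.7 FPKM with siSNRNP40 (0.25). MAGOHB, the paralogue of MAGOH, had 7.43 and 8.96 FPKM (0.27). CASC3 had 18.9 and 19.4 FPKM (0.039). The ratio of MAGOH to RBM8A was 1.15 with siControl and 1.14 with siSNRNP40, and that of MAGOH to MAGOHB was 6.07 and 5.92. EIF4A3 to CASC3 was 3.10 and 3.03, whereas EIF4A3 to RBM8A went from 1.49 to 1.26. These ratios rest on 1 pooled value per gene and condition and have no test. Of the windows of RBM8A, 52.8% occur elsewhere, with 44.7% of all its windows within the span of C14orf39 on chromosome 14, which also holds the copy RBM8B, and the part of such reads in the value of RBM8A was not tested.

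MAGOH and MAGOHB encode nearly the same protein, so exon 3 is shown in part to compare their mRNAs, with the bases that differ in capitals. The MAGOH stretch lies at chr1:53699214-53699324 and that of MAGOHB at chr12:10762430-10762540, both on the minus strand of GRCh37, and 17 of 111 bases differ.
MAGOH: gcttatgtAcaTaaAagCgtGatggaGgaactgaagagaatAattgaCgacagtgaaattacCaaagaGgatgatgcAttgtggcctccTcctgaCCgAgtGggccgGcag
MAGOHB: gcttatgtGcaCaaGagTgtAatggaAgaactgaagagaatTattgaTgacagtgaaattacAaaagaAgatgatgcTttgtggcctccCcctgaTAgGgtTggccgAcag

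Over the whole coding sequence 86.8% of aligned bases were identical, and the longest run common to both mRNAs was 38 bases. Only 9.28% of the MAGOH windows occur elsewhere in the genome, most of these in the pseudogene MAGOH2P on chromosome 17.

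**Figure D3:**
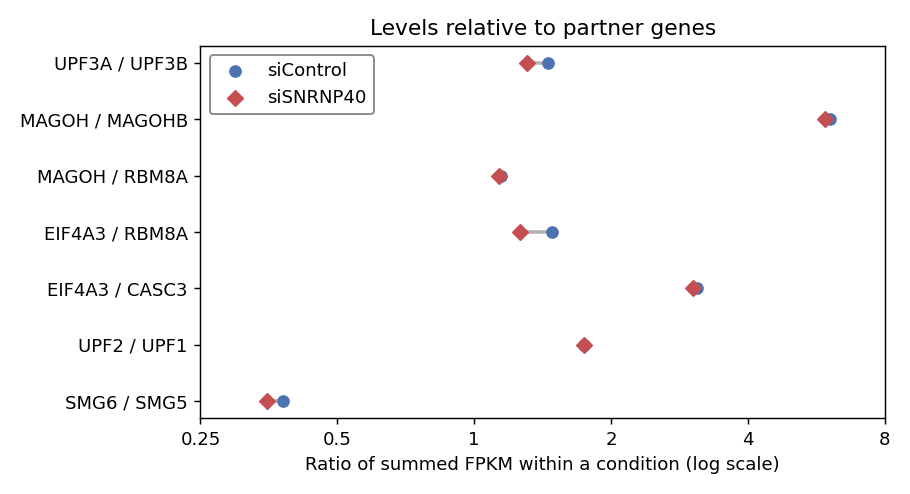
Ratio of summed FPKM between pairs of genes within a condition (x axis, log scale) for siControl (circles) and siSNRNP40 (diamonds), 1 pooled value each. UPF2 to UPF1 and MAGOH to RBM8A nearly coincide in the 2 conditions, and EIF4A3 to RBM8A, from 1.49 to 1.26, moves the most.

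Single transcripts were compared next, because the sum over a gene can hide a shift between its isoforms. Of the 13 listed transcripts 11 had a mean of at least 1 FPKM, with log2 ratios from -0.20 to 0.25. None of the 11 passed 2-fold, beside 10.5% of the 16691 transcripts that passed the same filter in all genes. Of the 11, 5 are the only listed transcript of their gene and repeat its summed value. The 10.5% is not matched to the 11 for level or for the number of transcripts per gene. Cuffdiff divides fragments among overlapping isoforms by a model, so these values are less direct than the sums.

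In UPF1, SMG1, SMG5, EIF4A3 and MAGOH 1 transcript is listed, and in the other 4 genes there are 2. SMG6 was the most evenly divided. Its leading transcript had 6.86 FPKM with siControl and 6.82 FPKM with siSNRNP40, and the other had 4.998 and 4.35 FPKM (log2 ratio -0.20), so most of the lower sum of SMG6 lay in the second transcript. The leading transcript of UPF3A had 16.8 and 17.1 FPKM, and the second had 3.36 and 3.70 FPKM, or 16.7% and 17.8% of the gene. In UPF2 the second transcript held 1.09% and 1.75% of the gene. In UPF3B it had 0.456 FPKM with siControl and was listed at 0 with siSNRNP40, and the leading transcript alone had 13.4 and 15.9 FPKM (0.25).

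The most expressed transcript was the same in both conditions in all 4 genes. It differed between conditions in 14.7% of the 5282 genes with several listed transcripts. The share of the leading transcript moved by 0.656 points in UPF2, 1.12 points in UPF3A, 3.30 points in UPF3B and 3.21 points in SMG6. The median shift was 5.70 points over all genes with several transcripts and 5.11 points over the 2304 of them with a mean of 10 to 60 FPKM. These genes were not matched for the number of transcripts or for how evenly they divide the gene. With siControl the leading transcript held 98.9% of UPF2, 83.3% of UPF3A and 96.7% of UPF3B.

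**Figure D4:**
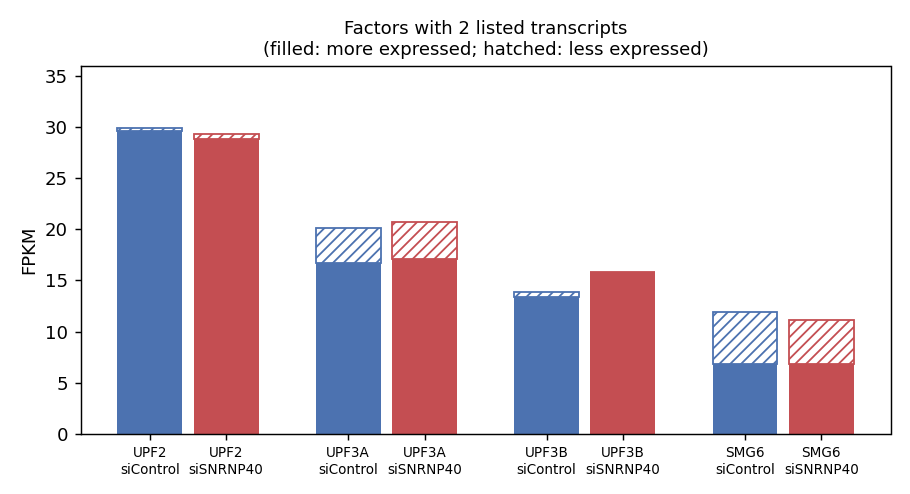
FPKM (y axis) of the 4 factors with 2 listed transcripts, stacked as the more expressed (filled) and the less expressed transcript (hatched), for siControl (blue) and siSNRNP40 (red), 1 pooled value each. The leading transcript keeps most of the gene in both conditions, and the hatched part of UPF3B is listed at 0 with siSNRNP40.

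Other genes of the same pathway were taken as lists of known roles and counted against the same limits. No gene of any list passed 2-fold, beside 1.47% of all genes. A log2 ratio of 0.32 was passed in either direction by 23.4% of all genes, the share to set beside each list. The median log2 ratio of all genes was 0.0034. Among 10 exon junction partners the median log2 ratio was 0.17, and 9 were above 0. SAP18, a subunit of the ASAP complex that binds the junction complex, alone passed 0.32 with 104.4 FPKM in siControl and 139.9 FPKM in siSNRNP40 (0.42). WIBG, now PYM1, which takes the complex apart during translation, had 13.9 and 17.02 FPKM (0.30). PNN, a junction-bound splicing protein, was the 1 gene below 0, with 57.2 and 47.1 FPKM (-0.28). The lists differ from the 9 factors in size and makeup, and no test separates them.

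Among 8 other decay factors the median was -0.097, and PNRC2 alone passed 0.32, with 47.1 FPKM in siControl and 63.0 FPKM in siSNRNP40 (0.42). PNRC2 joins UPF1 to the decapping enzyme. RUVBL1, an ATPase that acts on the SMG1 kinase, had the next highest log2 ratio at 0.077, and SMG8 and MOV10 the lowest, at -0.18 and -0.16.

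Decapping and exonuclease genes lay on both sides of 0. Of 8 genes 4 were above and 4 below (median -0.016), and none passed 0.32 in either direction. DCP2, the decapping enzyme, had 10.5 and 8.62 FPKM (-0.29), while its activator DCP1A had 5.95 and 7.02 FPKM (0.24). EDC4, a decapping scaffold, had 0.19, and DCP1B had -0.25 at about 1 FPKM.

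In the list of termination, cap and tail factors 1 of 7 passed the limit, and the median was 0.031. NCBP1, the large subunit of the nuclear cap-binding complex, had 26.9 FPKM with siControl and 21.5 FPKM with siSNRNP40 (-0.32), just past the limit. Its small partner NCBP2 had 71.3 and 85.1 FPKM (0.25). The 2 subunits therefore had log2 ratios of opposite sign. GSPT2, a release factor, had -0.31 and EIF4E, the cytoplasmic cap-binding protein, had 0.18.

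The last list held 12 genes with transcripts that have been described as substrates of nonsense-mediated decay. FPKM was summed over all listed transcripts of each gene, whether or not they are substrates. The median log2 ratio was 0.16, but it was 0.064 among those with a mean of at least 5 FPKM and 0.28 with the most expressed transcript alone. Of the 12, 9 were above 0, and 4 passed 0.32, all of them higher. Among all genes 23.4% passed it in either direction and 11.9% were higher. The list was chosen with earlier results of these data known, and no test was run on it. GADD45A, a stress-response gene, had 20.9 FPKM with siControl and 32.8 FPKM with siSNRNP40 (0.65). SNHG12, a host of small nucleolar RNAs, had 15.2 and 23.2 FPKM (0.61). ATF3 had 1.24 and 1.85 FPKM (0.58), near the minimum of 1 FPKM. ZFAS1, listed under its older name ZNFX1-AS1, had 128.1 and 162.9 FPKM (0.35). ZFAS1 is an antisense gene, and the use of strand in its counting is not given in the sources used here. The lowest values were those of ATF4 (-0.12) and DDIT3 (-0.060). RNA levels were measured, not rates of decay, and the part of decay in these values was not tested.

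**Figure D5:**
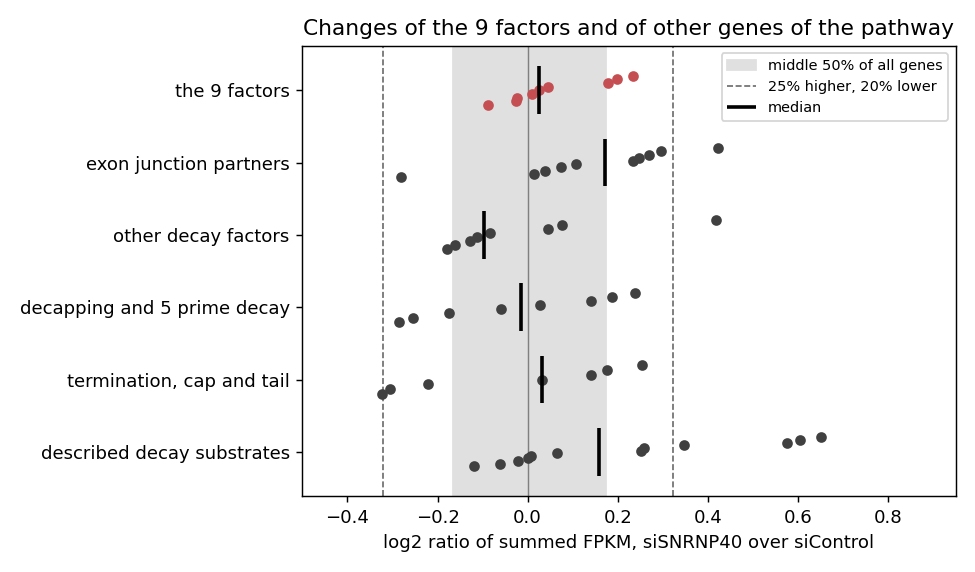
Log2 ratio of summed FPKM, siSNRNP40 over siControl (x axis), for the 9 factors (red) and 5 lists of other genes of the pathway (dark points, 1 per gene), with list medians as black bars, the middle 50% of all genes in grey and dashed lines at 25% higher and 20% lower. The 9 factors lie between -0.087 and 0.23, inside the dashed lines, and 4 of the described substrates lie to the right of them.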

How the data were processed

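RNA from LV-M100 cells was depleted of ribosomal RNA and sequenced. Per the methods and the submitters' processing notes, linkers and low-quality bases were removed (cutadapt 1.2.1), hg19 served as the mapping reference (TopHat2 2.0.8) and cuffdiff 2.0.2 set the conditions against each other. Deposited values in FPKM are the authors' cuffdiff estimates, normalized for transcript length and mapped fragments, with the 2 libraries of a condition pooled. In the methods the siRNA replicates are described as averaged. The table also holds the authors' fold changes, test statistics and significance values, which were not used.

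FPKM was summed per gene symbol, and log2 ratios of siSNRNP40 over siControl were taken without a pseudocount among genes (12334) with a mean of at least 1 FPKM and values above 0 in both conditions. Limits were 2-fold, from the study, and a log2 ratio of 0.32. Genes with a mean of 10 to 60 FPKM were a range chosen after the values were seen. With 1 value per condition no test was run. The 9 factors, the lists and the limits were chosen with earlier results of these data known. Named genes were the 9 factors, SNRNP40, the partners in level ratios and, in each list, the 2 highest and 2 lowest log2 ratios. The rule also gave CWC22 (log2 ratio 0.014) among the lowest exon junction partners. All list genes past 0.32 are named. A further decay factor was left out of the lists and level ratios and is not reported here. SMG9 and LRP8 were added after their values were seen. Steps were tested on simulated data.

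Gene models came from GENCODE release 44 on GRCh37, whose coordinates equal those of hg19, and gene names of copies from RefSeq. Every 32-base window of the canonical mRNAs was searched on both strands of GRCh37, and SMG1 copies were aligned with minimap2 2.31. Scripts ran under Python 3.11.15 with biopython 1.88, pandas 2.3.3 and numpy 2.4.6. The read length is not given in the sources used here.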

Additional observations from a re-analysis of the deposited data

How the results depend on the processing

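No paired analysis was possible because both libraries of a condition are merged into a single value per transcript. Leaving out single libraries was not run for the same reason. All 63 values of the 9 factors under 7 alternatives stayed within 0.1 of the main log2 ratio. The largest move was 0.078, and 1 value changed sign (UPF1 with upper-quartile scaling). Many of the 63 could not move. Leaving out alternative contigs, rows with a cuffdiff status other than OK or NOTEST, or transcripts below 0.1 FPKM left all 9 factors as they were. The most expressed transcript is the whole gene in the 5 factors with 1 listed transcript. Centring and upper-quartile scaling each shift all genes by a common amount, smaller than 0.1. The 9 factors stayed within 0.32 of 0 on the log2 scale with a pseudocount, centring, upper-quartile scaling and the most expressed transcript alone. Genes past 2-fold, 181, numbered 1870 without a filter, 857 at a mean of at least 0.1 FPKM, 49 at 5 FPKM, 74 with a pseudocount of 1 and 24 at 10 to 60 FPKM, the last range chosen after the data were seen. Genes past 0.32, 2883, numbered 6461, 4989 and 1424 under the first 3 of these settings and 778 in the last. These counts differ in part because the genes compared differ. They numbered 17354 without a filter, 15582 at 0.1 FPKM and 8559 at 5 FPKM. With a pseudocount there were 12339, and at 10 to 60 FPKM there were 5011.

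The decapping list's median, -0.016, was 0.085 at a mean of at least 5 FPKM, and that of the described substrates, 0.16, was 0.064 at that minimum and 0.28 with the most expressed transcript alone. With that transcript alone, for siControl and siSNRNP40, UPF3A to UPF3B was 1.253 and 1.08 and SMG6 to SMG5 was 0.220 and 0.214. With a pseudocount of 1, MAGOH to MAGOHB was 5.47 and 5.43. The cause was not tested. Depth is unknown, so the smallest difference these values could show cannot be stated.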

Other observations

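The gene models of the 9 factors hold forms that the deposited table does not separate. GENCODE lists 90 transcripts for the 9 genes, beside 13 in the table. Of the 90, 24 are annotated as retaining an intron and 3 as targets of nonsense-mediated decay, 2 in UPF1 and 1 in SMG1. EIF4A3 has 6 annotated intron-retaining transcripts, and UPF1 and SMG1 have 5 each, although the table lists 1 transcript for each of these genes. MAGOHB, the paralogue of MAGOH, has 5 annotated decay targets among 11 transcripts. Levels of these forms were not measured here.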
